A study of Mus musculus with 12 samples.

Results

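The sterol regulatory element-binding protein (SREBP) system and its neighbours in cholesterol traffic were followed through 8 genes: Srebf1, Srebf2, Scap, Insig1, Insig2, Stard4, Mylip and Abca1. They were taken by gene name from the 49315 genes in the deposited tables. SREBPs are transcription factors made as membrane proteins of the endoplasmic reticulum. The escort protein SCAP carries them to the Golgi, where proteases free the active factor, and the INSIG proteins hold SCAP back when sterols are plentiful. Liver X receptors (LXR) work in the other direction, since oxidised sterols activate them to drive genes of cholesterol export and of lower cholesterol uptake.

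RNA-seq had been made from MIN6, a mouse insulinoma line used as a pancreatic β-cell model, labelled wild type in every group and grown in DMEM with 15% fetal bovine serum and 2 mM glutamine. There were 12 libraries in 4 groups of 3. They were cells labelled as controls, cells kept without amino acids (AA) for 16 h (starved), cells given AA back for 3 h (re-added), and cells given AA back together with an agent labelled Rap for 3 h (Rap). The labels do not spell out Rap or its dose, do not give the composition of the AA-free medium, and do not say how long the last 2 groups had been without AA. Nor do they say whether the 3 libraries in each group were grown as separate cultures, so every p-value reflects only how much these libraries vary, and that variation may be technical. The series is titled for phosphorylation of PDX1, a β-cell transcription factor, under AA and mTORC1 signalling.

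Library totals ran from 18555958 to 25631056 counted reads, and 16844 genes had enough reads to test, all 8 members among them. The fewest reads of a member in any library were 118, for Abca1, and the other 7 genes had at least 558. Of 14 β-cell markers, the summed CPM (the usual count scaled to library size) was 55300 to 71490 in controls and 44090 to 52630 in the other 9 libraries. Ins2 was at 16640 CPM or more in every library, whereas Ucn3 was at 0.424 to 1.48 CPM and Slc2a2 at 1.01 to 10.5 CPM. Markers of cells that a pure β-cell line should lack were present and uneven. The 14 leukocyte markers summed to 1235 to 1475 CPM in controls, 79.8 to 1203 in starved, 73.5 to 491 in re-added and 71.9 to 75.5 in Rap libraries. The 11 fibroblast markers ran from 348 to 404 in controls, from 24.8 to 308 in starved, from 33.3 to 141 in re-added and from 22.5 to 25.1 in Rap libraries, and the 11 endothelial markers followed at 292 to 343, 40.0 to 288, 40.1 to 138 and 45.2 to 45.9 CPM. The 8 lung epithelial markers ran from 1566 to 1879 CPM in controls, from 84.7 to 1542 in starved, from 58.4 to 711 in re-added and from 43.0 to 51.2 in Rap libraries, and the 4 erythroid (globin) markers from 151 to 186, 10.04 to 169, 4.59 to 65.3 and 4.77 to 6.37 CPM. The part of these cells in the results was not tested directly, and values from libraries of like marker level are given where they change a result.

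The stretches just upstream of 4 of the genes are shown because the levels of these genes moved in different patterns. Srebf2 and Insig1 are textbook SREBP targets, Abca1 and Mylip textbook LXR targets. Sequences are from RefSeq, build GRCm38.p6, on the strand of the gene, and end just before the earliest transcript start in RefSeq, the count tables or GENCODE (for Srebf2 a GENCODE start at base 82147181). Capitals mark the matches to 3 short motifs, namely CCAAT (the NF-Y box, ATTGG where it lies on the other strand), CACGTG (an E-box) and CACCCCA (7 bases of the sterol element core CACCCCAC).
Srebf2, chr15:82147019-82147180, plus strand: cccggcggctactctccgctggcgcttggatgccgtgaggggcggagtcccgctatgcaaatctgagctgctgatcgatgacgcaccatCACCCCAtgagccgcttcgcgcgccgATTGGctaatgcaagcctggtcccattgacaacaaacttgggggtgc
Insig1, chr5:28071162-28071362, plus strand: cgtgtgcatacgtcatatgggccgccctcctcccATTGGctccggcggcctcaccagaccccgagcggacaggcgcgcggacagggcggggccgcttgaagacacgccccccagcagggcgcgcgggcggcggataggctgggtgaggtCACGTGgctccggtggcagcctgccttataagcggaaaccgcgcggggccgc
Mylip, chr13:45389492-45389741, plus strand: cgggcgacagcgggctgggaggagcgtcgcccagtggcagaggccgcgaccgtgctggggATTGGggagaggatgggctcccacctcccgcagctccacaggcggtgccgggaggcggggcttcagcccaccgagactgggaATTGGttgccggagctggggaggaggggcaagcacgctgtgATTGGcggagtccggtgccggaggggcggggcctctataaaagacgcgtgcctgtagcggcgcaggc
Abca1, chr4:53159896-53160145, minus strand: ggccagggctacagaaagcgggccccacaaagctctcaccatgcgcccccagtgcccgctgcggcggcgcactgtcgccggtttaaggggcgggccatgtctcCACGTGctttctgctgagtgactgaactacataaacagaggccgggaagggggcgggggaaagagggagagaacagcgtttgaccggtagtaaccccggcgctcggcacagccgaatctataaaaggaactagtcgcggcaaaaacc

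Positions were counted back from the RefSeq start of each gene, over the 250 bases before it and on both strands. In Srebf2 the CACCCCA match began 161 bases and the CCAAT match 135 bases before the start. Both lie close together in the printed stretch. In Insig1 the CCAAT match began 216 bases and the E-box 101 bases before the start, and a match to the looser form CACNCCAC began 9 bases before it, past the end of the printed stretch. Mylip held 3 CCAAT matches, at 190, 108 and 67 bases, and Abca1 held an E-box at 147 bases. In the windows of the other genes, Scap held an E-box 40 bases before its start, Insig2 held 3 CCAAT matches at 136, 46 and 29 bases in 1 of its 3 windows, and Srebf1 held a CCAAT match in each of 2 of its 3 windows, at 166 and 30 bases. Windows for 7 of the 8 genes were searched, and Stard4 was not used. Among all 32851 windows of 250 bases, 33.9% held CCAAT, 6.02% held CACGTG, 6.68% held CACCCCA, 5.29% held CACNCCAC and 2.58% held the full CACCCCAC. CACCCCA lies within CACCCCAC, which is itself a case of CACNCCAC. CACCCCA was added to the search after the sequences had been seen. A match describes letters in the window and nothing about binding.

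Levels of different genes were compared per length, as TPM (counts divided by exon length and scaled to a fixed sum). In controls the order was Insig1 (236 ± 32.9 TPM, SD, n = 3), Srebf1 (215 ± 23.1), Srebf2 (123 ± 25.4), Stard4 (60.0 ± 13.9), Insig2 (48.3 ± 4.49), Scap (25.5 ± 4.93), Mylip (25.0 ± 2.58) and Abca1 (3.45 ± 0.972). Libraries of Insig1 and Srebf1, of Stard4 and Insig2, and of Scap and Mylip overlapped, so neighbours in those pairs did not differ beyond their spread. Insig1 exceeded 96% of the 15750 genes at 1 TPM or more in controls, and Abca1 exceeded 22%. In starved cells Insig2 (72.5 ± 2.68 TPM) and Mylip (47.9 ± 1.25) both stood above Stard4 (35.1 ± 1.09) without overlap. In Rap libraries Srebf1 (129.5 ± 3.38 TPM), Srebf2 (124.6 ± 5.11) and Insig1 (120.2 ± 1.66) were within 10 TPM of one another on average, and Stard4 (26.7 ± 1.32) was below Mylip (40.9 ± 2.23). The highest Abca1 level was 13.4 ± 0.750 TPM in starved cells, at which it exceeded 45.5% of the genes at 1 TPM or more.

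**Figure D1:**
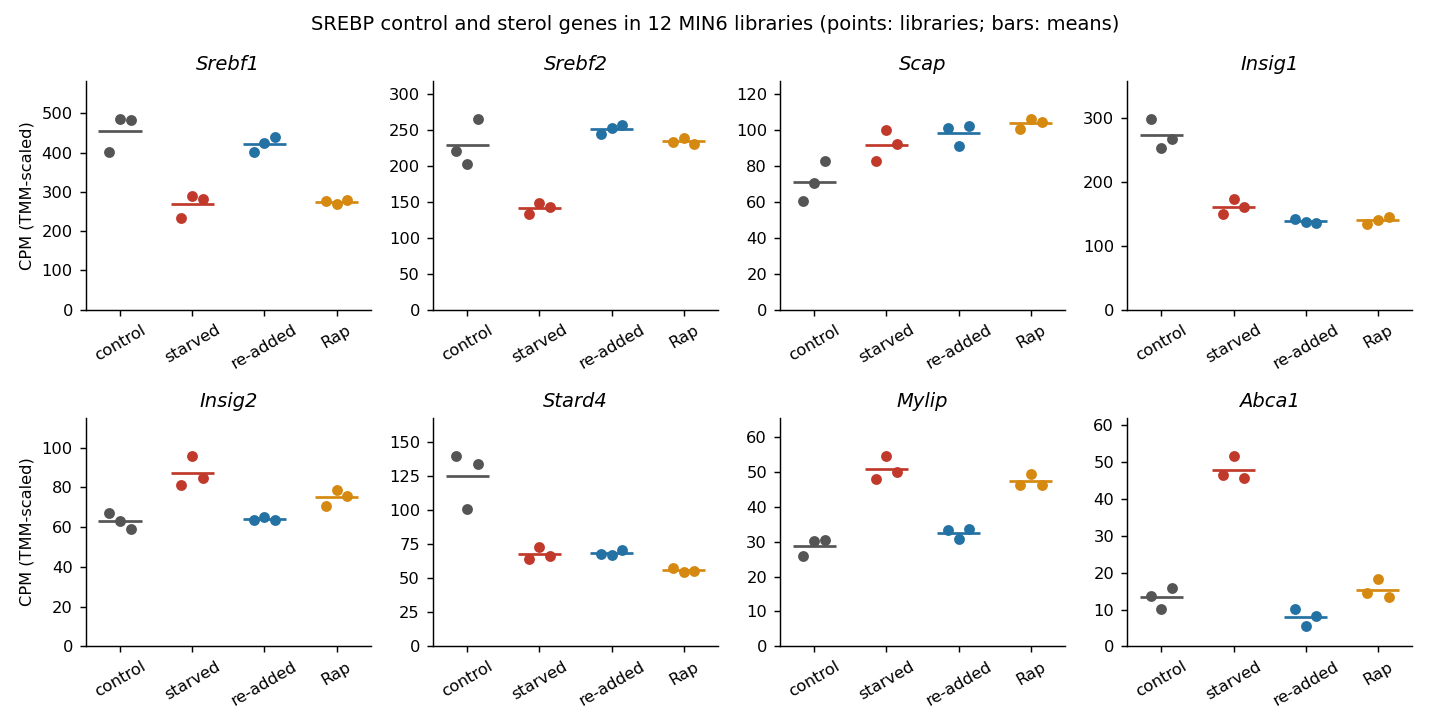
CPM (TMM-scaled, linear axes from 0) of the 8 genes in the control, starved, re-added and Rap groups; points are libraries and bars are means of 3. Srebf1 was low in starved and Rap libraries, Srebf2 only in starved ones, and Abca1 was highest in the 3 starved libraries at 45.7 to 51.7 CPM.

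Differences between groups were tested on raw counts with edgeR's quasi-likelihood test and Benjamini-Hochberg adjustment over all tested genes. CPM values below use TMM-scaled library sizes, libraries are given in the order of their replicate numbers, and log2 fold changes carry the standard error (SE) of the fit. A gene is said to have risen or fallen where its adjusted p was under 0.05. In bulk RNA, fewer cells of a type and less RNA per cell cannot be told apart.

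After 16 h without AA, all 8 genes differed from controls. Srebf1, Srebf2, Insig1 and Stard4 fell, and Scap, Insig2, Mylip and Abca1 rose. Of all tested genes, 38.9% were called in this comparison (24.3% higher and 14.6% lower). In TMM-scaled CPM, libraries of the 2 groups did not overlap for 7 of the 8 genes, against 50.1% of all tested genes. The median absolute log2 fold change was 0.76 over the 8 genes and 0.40 over all tested genes.

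Srebf1 (chr11:60199089-60222581, minus strand, summed exon length 5634 bases) encodes SREBP-1, whose forms mainly drive fatty acid synthesis, and gene counts do not separate those forms. It stood at 401, 485 and 482 CPM in controls and at 233, 290.4 and 281 CPM in starved cells. Every starved library was below every control, and the fall was -0.77 ± 0.10 on the log2 scale (adjusted p = 0.000105). Srebf2 (chr15:82147266-82205376, plus strand, 4989 bases) encodes SREBP-2, which mainly drives cholesterol synthesis and uptake. It stood at 221, 202 and 265 CPM in controls and 133, 148 and 143 CPM in starved cells. The groups did not overlap, and the log2 fold change was -0.70 ± 0.09 (adjusted p = 0.000128).

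Scap (chr9:110333288-110384950, plus strand, 7443 bases), the escort of both factors, stood at 60.3, 70.6 and 82.6 CPM in controls and at 82.4, 99.6 and 92.1 CPM in starved cells. The highest control lay just above the lowest starved library, so the groups overlapped in CPM. In TPM Scap did not overlap (22.2 to 31.2 in controls, 34.7 to 36.3 in starved cells). Its rise of 0.36 ± 0.11 (adjusted p = 0.0188) was the weakest call among the 8. It was lost under 4 alternatives, among them libraries of like marker level (0.23, adjusted p = 0.304). It was also lost without control replicate 1 (0.26, adjusted p = 0.0673), starved replicate 2 (0.30, 0.0604) or starved replicate 3 (0.31, 0.0575).

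The INSIG pair moved in opposite directions. Insig1 (chr5:28071363-28078662, plus strand, 3093 bases), itself an SREBP target, stood at 299, 254 and 268 CPM in controls and 151, 173 and 161 CPM in starved cells. All starved libraries were lower, and Insig1 fell by 0.76 ± 0.08 on the log2 scale (adjusted p = 2.37e-05). Insig2 (chr1:121304353-121332589, minus strand, 3473 bases), the INSIG gene that is not known as an SREBP target, stood at 67.3, 63.1 and 58.8 CPM in controls and 81.1, 95.8 and 84.6 CPM in starved cells. All starved libraries were higher, and Insig2 rose by 0.46 ± 0.08 (adjusted p = 0.00069). Within libraries, the TPM ratio of Insig1 to Insig2 was 4.98, 4.52 and 5.11 in controls and 2.09, 2.03 and 2.14 in starved cells, a log2 difference of -1.22. An exact two-sided permutation test gave p = 0.1, the smallest possible with 3 against 3, and 0.12 after adjustment over the 6 ratio tests made.

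Stard4 (chr18:33199355-33213862, minus strand, 5586 bases) encodes a carrier that moves cholesterol between membranes and is known as an SREBP target. It stood at 140.0, 101 and 134 CPM in controls and 64.0, 73.0 and 66.2 CPM in starved cells. Each starved library was below each control, with a log2 fold change of -0.88 ± 0.11 (adjusted p = 7.47e-05).

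Mylip and Abca1, named above as LXR targets, both rose. Mylip (chr13:45389742-45412019, plus strand, 3062 bases) encodes a ubiquitin ligase, also called IDOL, that sends lipoprotein receptors for degradation. It stood at 25.8, 30.2 and 30.5 CPM in controls and 47.8, 54.5 and 49.9 CPM in starved cells, a rise of 0.82 ± 0.09 (adjusted p = 2.93e-05). Abca1 (chr4:53030787-53159895, minus strand, 10363 bases) encodes a pump that loads cellular cholesterol onto apolipoproteins. It stood at 13.7, 10.2 and 15.9 CPM in controls and 46.5, 51.7 and 45.7 CPM in starved cells. Every starved library was far above every control. Abca1 rose 3.61-fold (log2 1.85 ± 0.20, adjusted p = 4.16e-05), and its log2 fold change was above that of 99.5% of tested genes.

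**Figure D2:**
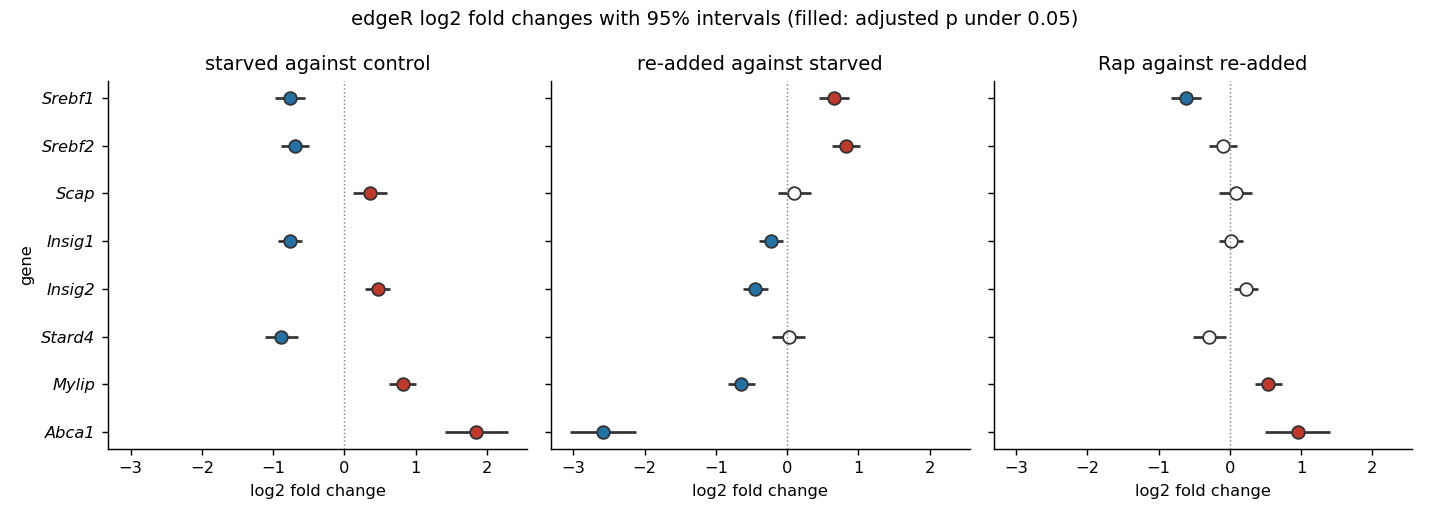
Log2 fold changes from edgeR (x axis) with 95% intervals for the 8 genes in the 3 main comparisons, 1 per panel, each named above its panel; filled points had an adjusted p under 0.05. Abca1 had the widest excursions, from 1.85 against control in starved cells to -2.59 against starved in re-added cells.

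With AA back for 3 h, 6 of the 8 genes differed from starved cells, where 37.3% of all tested genes were called (18.4% higher and 18.8% lower). Srebf1 and Srebf2 rose, and Insig1, Insig2, Mylip and Abca1 fell. Libraries did not overlap for those 6 genes, against 50.6% of all tested genes. The median absolute log2 fold change was 0.54 over the 8 genes and 0.37 over all.

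Srebf1 stood at 402, 425 and 439 CPM in re-added cells, above every starved library, and rose by 0.66 ± 0.10 on the log2 scale (adjusted p = 0.000251). Srebf2 stood at 244, 252 and 257 CPM and rose by 0.83 ± 0.09 (adjusted p = 2.85e-05). Against controls, the log2 differences were -0.11 for Srebf1 (adjusted p = 0.352) and 0.13 for Srebf2 (adjusted p = 0.243). Neither passed the test, and the re-added libraries of both genes lay inside the control range. Srebf2 passed it without control replicate 3 (0.25, adjusted p = 0.0166).

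Insig1 and Stard4 stayed at their starved level or below. Insig1 stood at 142, 138 and 136 CPM, under every starved library, with a log2 fold change of -0.22 ± 0.08 (adjusted p = 0.0395). That call was lost in 9 of 12 fits that left out 1 library, with values from -0.23 to -0.19 and adjusted p up to 0.115 among them, and with libraries of like marker level (-0.28, adjusted p = 0.143). It was also lost with upper-quartile factors (-0.16, adjusted p = 0.0646), with no filter on low counts (-0.21, 0.0812) and with the replicate block (-0.22, 0.0672). Stard4 stood at 68.2, 66.9 and 71.0 CPM, inside the starved range. Its log2 difference from starved cells was 0.02, with a 95% interval from -0.21 to 0.25 (adjusted p = 0.886). Against controls, Insig1 was lower by a log2 fold change of -0.98 (adjusted p = 5.13e-06) and Stard4 by -0.86 (adjusted p = 0.000108), with no overlap of libraries for either gene.

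Insig2 stood at 63.4, 64.8 and 63.7 CPM, below every starved library, and fell by 0.45 ± 0.08 on the log2 scale (adjusted p = 0.000873). These values lay within the control range, and the difference from controls was 0.02 (adjusted p = 0.846). The Insig1 to Insig2 ratio was 2.51, 2.39 and 2.40. All were above the starved libraries and below the controls (log2 difference from starved 0.22, exact two-sided permutation p = 0.1). Scap stood at 101, 91.2 and 102 CPM. It did not pass the test against starved cells (0.10, 95% interval -0.13 to 0.33, adjusted p = 0.465) and was above controls (0.46, adjusted p = 0.00523), a call lost with the marker sum as a covariate (0.36, adjusted p = 0.12).

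Mylip stood at 33.2, 30.6 and 33.6 CPM in re-added cells, under every starved library, and fell by 0.64 ± 0.09 on the log2 scale (adjusted p = 0.000113). Abca1 stood at 10.2, 5.62 and 8.14 CPM. All 3 libraries were below the lowest control in CPM, but the nearest were at 10.17 and 10.22 CPM. In TPM re-added and control libraries overlapped (2.81 in re-added replicate 1, 2.40 in control replicate 2). Abca1 was 6.01-fold lower than in starved cells (log2 -2.59 ± 0.21, adjusted p = 3.47e-06). Only 0.4% of tested genes had a lower log2 fold change. Against controls Abca1 was lower by a log2 fold change of -0.74 (adjusted p = 0.0142), a call lost without control replicate 3 (-0.59, adjusted p = 0.0503), without re-added replicate 2 (-0.54, 0.0543), in limma's test on log2 TPM and with the marker sum as a covariate (-0.67, 0.0963).

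When Rap was present during re-addition, 3 of the 8 genes differed from AA alone, where 7.98% of all tested genes were called (4.55% higher and 3.43% lower). Srebf1 fell, and Mylip and Abca1 rose. At an unadjusted p under 0.05 there were 5 genes, DESeq2's Wald test called 5, and edgeR on the 6 libraries of the comparison alone called 6. Libraries did not overlap for 6 of the 8 genes, against 38.9% of all tested genes. The median absolute log2 fold change was 0.26 over the 8 genes and 0.20 over all.

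Srebf1 stood at 277, 269 and 279.7 CPM in Rap libraries, all below the re-added ones and inside the starved range. Its log2 fold change was -0.62 ± 0.10 against re-added cells (adjusted p = 0.00226) and 0.04 against starved cells (adjusted p = 0.772). Srebf2 stood at 234, 239 and 231 CPM, a little under the re-added libraries and far above the starved ones. Its log2 fold change was -0.10 against re-added cells (95% interval -0.30 to 0.10, adjusted p = 0.541), and against starved cells it was higher by 0.73 (adjusted p = 9.9e-05). Fitted on the 3 Rap and 3 re-added libraries alone, the difference passed the test (-0.13, adjusted p = 0.0342).

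The ratio of Srebf1 to Srebf2 set the Rap group apart from the other 3. In TPM it was 1.61, 2.12 and 1.61 in controls, 1.55, 1.74 and 1.74 in starved cells, 1.46, 1.49 and 1.51 in re-added cells, and 1.05, 0.998 and 1.07 in Rap libraries. All Rap libraries were below the other 9. The log2 difference of Rap from re-added libraries was -0.52, with an exact two-sided permutation p of 0.1, the smallest possible, and 0.12 after adjustment. Between starved and control libraries, which overlapped, it was -0.08 (p = 0.8, the same exact permutation test).

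**Figure D3:**
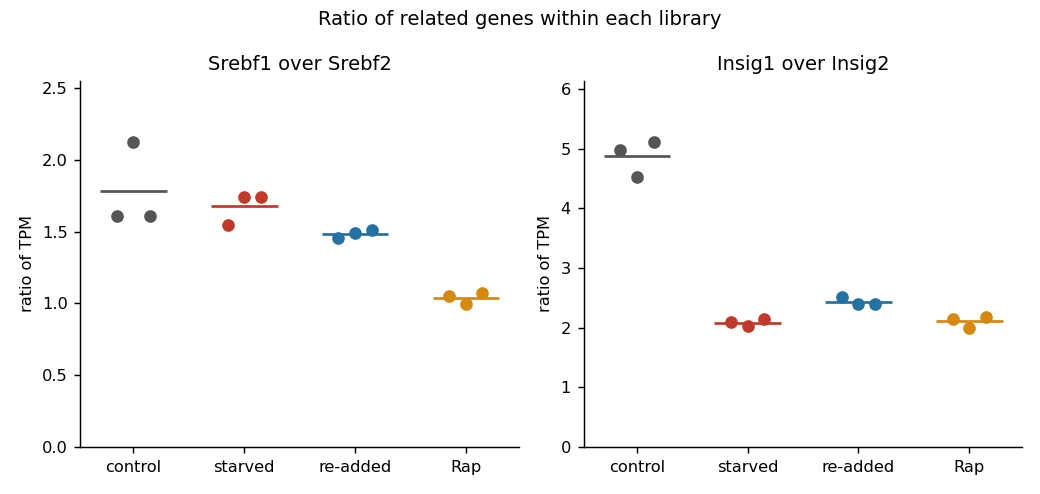
Ratio of TPM within each library (y axes, linear from 0) for Srebf1 over Srebf2 and Insig1 over Insig2 in the 4 groups; points are libraries and bars are means of 3. The Srebf ratio was 0.998 to 1.07 in Rap libraries and at least 1.46 elsewhere, and the Insig ratio was at least 4.52 in controls and at most 2.51 elsewhere.

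Mylip stood at 46.1, 49.4 and 46.1 CPM with Rap. These libraries were all above the re-added ones, with a rise of 0.54 ± 0.09 (adjusted p = 0.00236), and the difference from starved cells was -0.10 (adjusted p = 0.339). Abca1 stood at 14.4, 18.4 and 13.5 CPM, above every re-added library and below every starved one. It rose by 0.95 ± 0.21 against re-added cells (adjusted p = 0.016), and against starved cells its log2 fold change was -1.64 (adjusted p = 9.66e-05). The rise was lost without re-added replicate 2 (0.75, adjusted p = 0.0595), re-added replicate 3 (0.97, 0.0603) or Rap replicate 2 (0.81, 0.0833), and in limma's test on log2(TPM + 1) (0.64, 0.0553). From libraries of like marker level it was 1.14 and passed the test.

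The other 4 genes did not pass the test with Rap against AA alone. Insig2 stood at 70.7, 78.8 and 75.4 CPM, above every re-added library, with a log2 difference of 0.23 (95% interval 0.06 to 0.40, adjusted p = 0.103). Stard4 stood at 57.9, 54.9 and 55.6 CPM, the lowest level of the 4 groups, with a log2 difference of -0.29 (95% interval -0.53 to -0.06, adjusted p = 0.126). Both passed in DESeq2's Wald test (0.21 with adjusted p = 0.0381 for Insig2, -0.31 with 0.0424 for Stard4) and with only the 6 libraries, and Stard4 also passed without control replicate 2 (adjusted p = 0.0103). Insig1 stood at 135, 139.9 and 146 CPM, overlapping the re-added libraries, with a log2 difference of 0.02 (95% interval -0.15 to 0.19, adjusted p = 0.918). Scap stood at 100.4, 106 and 104 CPM, also overlapping, with a log2 difference of 0.08 (adjusted p = 0.702).

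Rap libraries were also set beside the 2 outer groups. Against controls 6 of the 8 genes were called, where 53% of all tested genes were called (27.7% higher and 25.3% lower), and 6 did not overlap, against 61%. Srebf1 (log2 fold change -0.73), Insig1 (-0.96) and Stard4 (-1.15) were lower. Scap (0.54), Insig2 (0.25) and Mylip (0.71) were higher. With the marker sum as a covariate the Scap call was lost (0.41, adjusted p = 0.156). The Insig2 call (adjusted p = 0.0188) was lost without control replicate 3 (0.20, adjusted p = 0.0588), without Rap replicate 2 (0.22, 0.0714) and under 4 other alternatives. Srebf2 (0.03, adjusted p = 0.794) and Abca1 (0.21, adjusted p = 0.398) did not pass. Against starved cells 4 genes were called, where 44.1% of all tested genes were called (20.2% higher and 23.9% lower), and 6 did not overlap, against 53.1%. Besides Srebf2 and Abca1 these were Insig1 (-0.20, adjusted p = 0.0477) and Insig2 (-0.22, adjusted p = 0.0407), and both of the latter were lost without starved replicate 2, re-added replicates 2 or 3, or any 1 Rap library, which left 2 genes called. Both calls were also lost with libraries of like marker level, at log2 fold changes of -0.27 for Insig1 and -0.31 for Insig2. Stard4 did not pass (-0.27, adjusted p = 0.0576), though its libraries did not overlap. It passed under 6 alternatives, among them DESeq2's Wald test (-0.27, adjusted p = 0.0382), and without control replicate 1 or control replicate 2. Between re-added cells and controls 4 genes were called (Scap higher, Insig1, Stard4 and Abca1 lower), where 49.3% of all tested genes were called (24.8% higher and 24.5% lower), and 5 did not overlap in CPM, against 59.5%. These comparisons share libraries with the ones above.

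**Figure D4:**
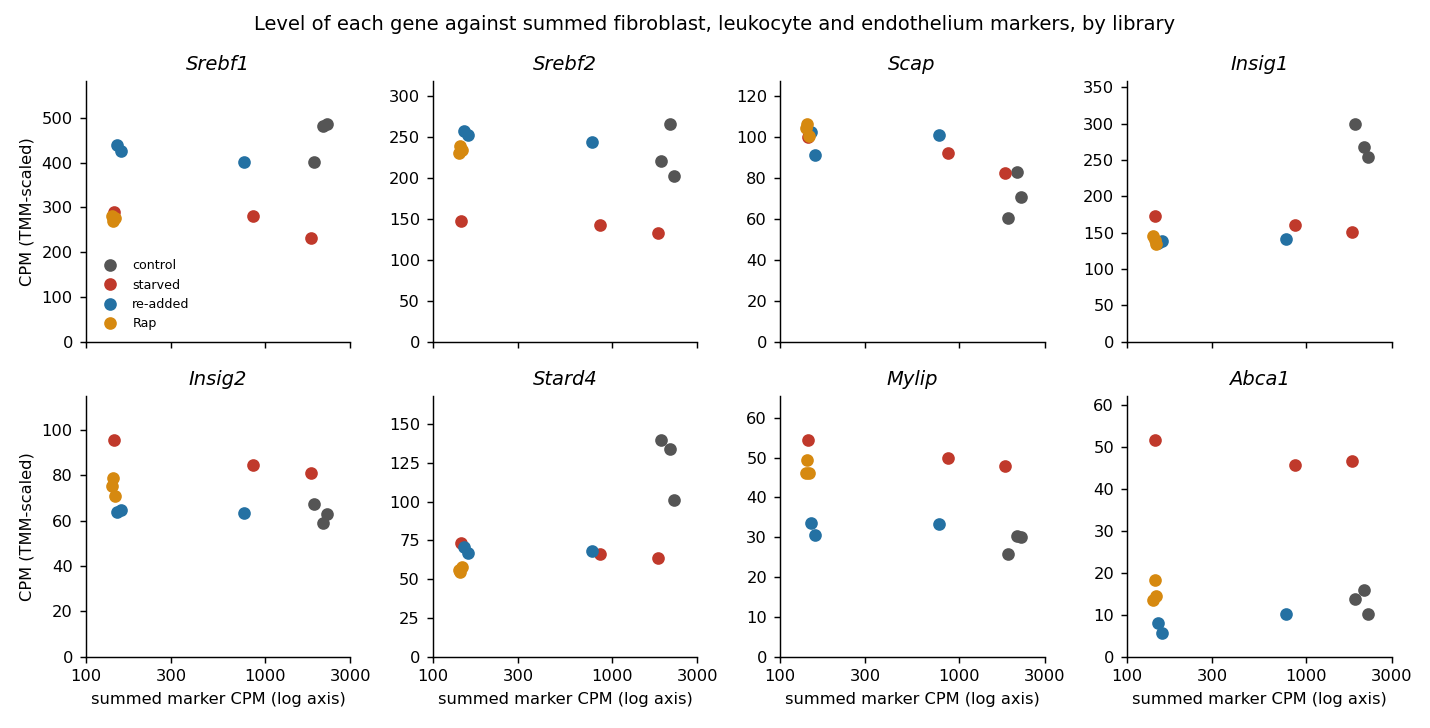
CPM of each gene (y axes, linear from 0) against the summed CPM of fibroblast, leukocyte and endothelial markers (x axes, log scale), 1 point per library coloured by group. Within the starved group the marker sum spans 144.6 to 1799 CPM while Abca1 stays between 45.7 and 51.7 CPM, and the marker sum is 1876 to 2223 CPM in controls and 139.9 to 145.2 CPM in Rap libraries.

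The marker sum of fibroblasts, leukocytes and endothelium was 1799, 144.6 and 863 CPM in starved, and 769.8, 158 and 149.9 CPM in re-added libraries. Among starved libraries, the order of the 8 genes depended on the scale. In TMM-scaled CPM each was highest in replicate 2, where the marker sum was lowest, whereas in TPM Srebf2, Insig1, Stard4, Mylip and Abca1 were highest in replicate 1, where it was highest. The TMM factors of the 3 libraries were 1.08, 0.958 and 1.00 and move all genes of a library alike. Apart from Scap in TMM-scaled CPM, every starved library of each gene was outside the control range. Libraries of like marker level were starved replicate 1 beside the 3 controls, and starved replicate 2 beside re-added replicates 2 and 3. The others were re-added replicates 2 and 3 beside the 3 Rap libraries, and starved replicate 2 beside the 3 Rap libraries. A lone starved library was assumed to vary like the other groups, and the choice was made with these values known. With starved replicate 1 against controls, 7 of the 8 genes were called. Srebf1 had a log2 fold change of -0.95 there, Insig1 of -0.84, Stard4 of -0.95 and Abca1 of 1.82, and Scap was the gene that was lost. With re-added and starved libraries of like marker level, 5 genes were called, all of the 6 above but Insig1, and Abca1 had a log2 fold change of -2.85. With Rap and re-added libraries of like marker level, the same 3 genes were called.

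Other genes of the pathway were read from lists that hold none of the 8 genes. The list of SREBP processing and turnover held 22 genes, such as the COPII coat that carries SCAP and the ligases that degrade INSIG. It had 11 genes higher and 3 lower in starved cells, where 24.3% of all tested genes were higher and 14.6% lower. The count of lower genes is near that share. The median log2 fold change was 0.01 over all tested genes and 0.22 over the list. On the 6 control and starved libraries alone 9 were called, and with libraries of like marker level 8. Lpin1, a lipin known to keep SREBP from the nucleus when mTORC1 is inactive, was at 28.9 ± 3.70 CPM in controls and 56.6 ± 5.43 in starved cells, then at 19.9 ± 2.21 in re-added and 45.5 ± 4.68 with Rap. It rose by 0.97 (adjusted p = 1e-04), fell by 1.51 (adjusted p = 3.51e-06) and rose by 1.19 (adjusted p = 0.000152) in the 3 successive comparisons. Pgrmc1, a haem-binding membrane protein, and Erlin1, an endoplasmic reticulum protein that takes part in INSIG and SREBP turnover, rose by 0.54 (adjusted p = 0.000399) and 0.61 (adjusted p = 0.000567) in starved cells. With AA back, 8 genes of the list were higher and 3 lower, where 18.4% of all tested genes were higher and 18.8% lower. The COPII coat genes Sec23b (145 ± 8.90 to 300.4 ± 10.1 CPM, log2 1.05, adjusted p = 1.62e-06) and Sec24d (104 ± 6.35 to 186 ± 7.98 CPM, log2 0.84, adjusted p = 2.56e-05) rose. With Rap, 3 genes of the list were higher and 2 lower, where 4.55% of all tested genes were higher and 3.43% lower. Pgrmc1 (0.39, adjusted p = 0.0134) was among the higher and Sec23b (-0.35, adjusted p = 0.0145) among the lower. That count of 5 ran from 1 to 8 when 1 library was left out, the lowest value being that without re-added replicate 2, re-added replicate 3 or Rap replicate 3, and was 10 in DESeq2's Wald test.

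Cholesterol synthesis, the textbook output of SREBP-2, had all 20 genes lower in starved cells (median -0.74, with 14.6% of all tested genes lower). With AA back 18 were higher (median 0.72, with 18.4% of all tested genes higher). With Rap against AA alone 11 were lower (median -0.38, with 3.43% of all tested genes lower) and 0 higher. Cyp51, lanosterol demethylase, stood at 194 ± 16.3, 78.8 ± 6.76, 168 ± 1.55 and 99.2 ± 1.27 CPM in the 4 groups in the same order. Hmgcs1, which makes HMG-CoA, stood at 88.3 ± 1.91, 44.3 ± 1.15, 114 ± 5.40 and 71.4 ± 3.67 CPM. Both fell, rose and fell again in the 3 successive comparisons, with adjusted p of 0.000151 or less for Cyp51 and of 6.32e-05 or less for Hmgcs1. Tm7sf2, a sterol reductase, fell by 1.75 in starved cells (adjusted p = 3.29e-06), and Lss, lanosterol synthase, had a log2 fold change of -0.86 with Rap (adjusted p = 0.000166). Srebf2 fell and rose with these genes in the first 2 comparisons and did not pass the test in the third. Insig1 and Stard4 fell with them in the first and did not rise with them in the second.

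Fatty acid synthesis, a textbook output of SREBP-1, had 8 of 17 genes lower and 1 higher in starved cells (median -0.30), 5 higher and 0 lower with AA back (median 0.19), and 7 lower and 0 higher with Rap (median -0.35). The last count ran from 4, without any 1 of re-added replicates 2 and 3 and Rap replicates 1, 2 and 3, to 11, without control replicate 2. Of all tested genes, 38.9% were called in starved cells (14.6% lower), 37.3% with AA back (18.4% higher) and 7.98% with Rap (3.43% lower). With AA back, the share of the list called in either direction was no larger than that of all tested genes. The desaturase gene Scd2 stood at 2892 ± 230.5, 702 ± 53.2, 2123 ± 134 and 1170 ± 64.8 CPM in the 4 groups, with adjusted p of 0.000102 or less in each successive comparison. Its relative Scd1 fell from 383 ± 22.4 to 132 ± 58.8 CPM in starved cells (log2 -1.53, adjusted p = 0.000511). Marker sums were also uneven among starved libraries, and their part in the Scd1 spread was not tested. Acss2, which makes acetyl-CoA from acetate, fell by 0.51 in starved cells (adjusted p = 0.000962). The elongase Elovl6 and the desaturase Fads2 rose with AA back, by 0.65 and 0.64 (adjusted p = 0.000679 and 0.00145). With Rap, Fasn, fatty acid synthase, had a log2 fold change of -0.87 (adjusted p = 0.000672) and Elovl6 of -0.81 (adjusted p = 0.000957).

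Of the list of LXR receptors and targets, 10 of 12 genes could be tested. In starved cells 6 were higher and 1 lower (median 0.39), where 24.3% of all tested genes were higher and 14.6% lower. With AA back 1 was higher and 6 lower (median -0.76), where 18.4% of all tested genes were higher and 18.8% lower. With Rap 4 were higher and 0 lower (median 0.25), where 4.55% of all tested genes were higher and 3.43% lower. The list pools receptors with targets, and the receptors Nr1h2, Rxra and Rxrb were among the higher genes in starved cells. Abcg1, a cholesterol exporter related to Abca1, rose from 79.1 ± 6.93 to 134 ± 8.72 CPM in starved cells (log2 0.76, adjusted p = 2.15e-05) and fell to 66.1 ± 1.64 CPM with AA back (log2 -1.01, adjusted p = 1.85e-06). Nr1h2, which encodes LXRβ, rose by 0.46, fell by 1.06 and rose by 0.63 in the 3 successive comparisons (adjusted p = 0.00042, 9.96e-07 and 0.000343). Rxrb, a partner receptor of LXR, fell by 1.02 with AA back and rose by 0.73 with Rap (adjusted p = 3.72e-06 and 0.000311). Arl4c rose by 0.52 in starved cells (adjusted p = 0.000295) and Smpdl3a by 0.73 with Rap (adjusted p = 9.49e-05), both known LXR targets. The targets of the list were mixed in starved cells. Abcg1, Arl4c and Smpdl3a rose there, whereas Lpcat3 had a log2 fold change of -0.211 (adjusted p = 0.0371). Pltp (-0.997, adjusted p = 0.212) and Apoe (-1.154, adjusted p = 0.241) did not pass the test. In starved libraries Pltp stood at 13.0 ± 9.94 CPM and Apoe at 43.8 ± 36.3 CPM. Marker sums were uneven there too, and their part in this spread was not tested. With AA back Lpcat3 rose by 0.515 (adjusted p = 0.000183). Mylip and Abca1 moved in the same directions as Nr1h2 in each of the 3 comparisons. Srebf1 moved in the opposite direction in each (-0.77, 0.66 and -0.62).

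**Figure D5:**
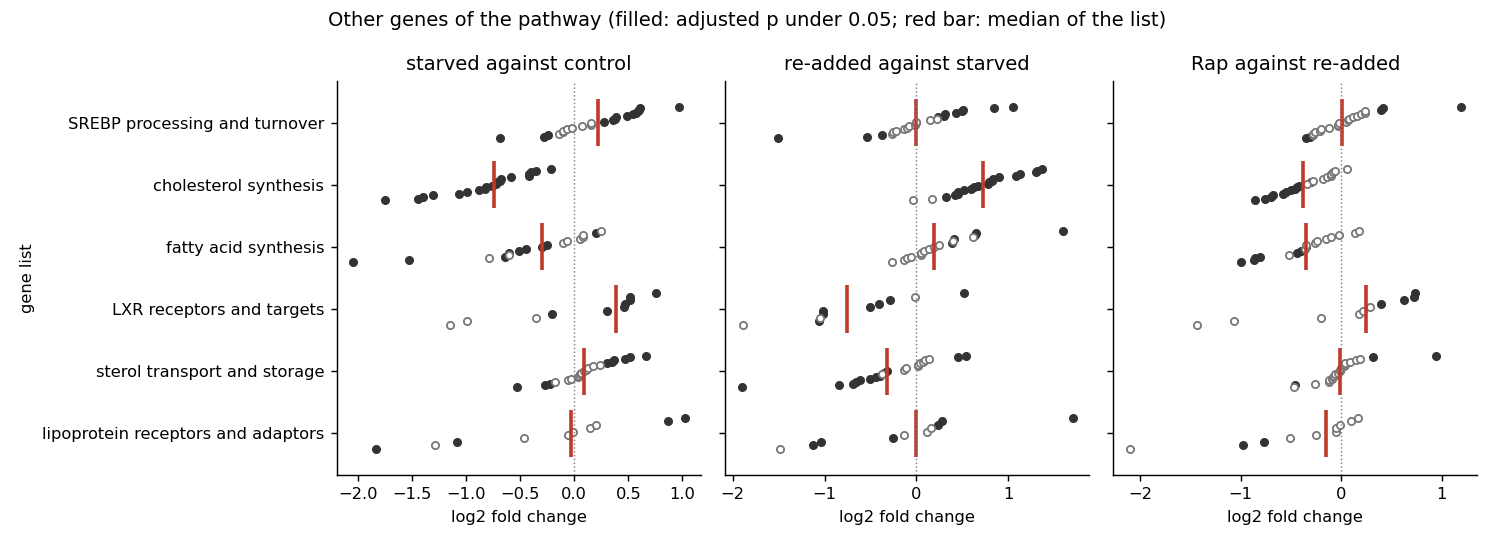
Log2 fold changes (x axes, with a separate scale in each panel) of the genes of 6 pathway lists in the 3 main comparisons; each point is a gene, filled where its adjusted p was under 0.05, and red bars are list medians. All 20 cholesterol synthesis genes lie below 0 in starved against control, and the median of the LXR list is -0.76 in re-added against starved.

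Genes of sterol transport and storage (21 genes) split between directions, with 6 higher and 3 lower in starved cells, 2 higher and 10 lower with AA back, and 2 higher and 1 lower with Rap. The first count is near the 24.3% higher and 14.6% lower among all tested genes, and was 5 without starved replicate 3 and 3 with libraries of like marker level. The middle count of 12, where 18.8% of all tested genes were lower, was 7 (1 higher and 6 lower) with libraries of like marker level, and the last was 1 higher and 0 lower without re-added replicate 2 or Rap replicate 1. Of all tested genes, 18.4% were higher with AA back, and 4.55% were higher and 3.43% lower with Rap. Gramd1a, which carries cholesterol from the plasma membrane to the endoplasmic reticulum, rose by 0.52 in starved cells. It fell by 0.62 with AA back and rose by 0.32 with Rap (adjusted p = 0.000309, 7.64e-05 and 0.0257 in the 3 comparisons). The oxysterol-binding protein relative Osbpl2 did likewise, by 0.47, 0.85 and 0.94 (adjusted p = 0.00478, 9.36e-05 and 0.000333), and its relative Osbpl1a rose by 0.67 in starved cells (adjusted p = 0.00108). Tmem97, the sigma-2 receptor, fell by 0.69 with AA back and by 0.46 with Rap (adjusted p = 0.000125 and 0.00992). Among 10 lipoprotein receptors and adaptors, 2 were higher and 2 lower in starved cells, 3 higher and 3 lower with AA back, and 0 higher and 2 lower with Rap, where 38.9%, 37.3% and 7.98% of all tested genes were called in either direction. The first count is near that share. The middle count of 6 was 3 with libraries of like marker level and without any 1 of starved replicate 1 and re-added replicates 2 and 3. Vldlr, a known substrate of the ligase encoded by Mylip, stood at 53.7 ± 8.08 CPM in controls, 98.4 ± 10.1 in starved and 47.9 ± 3.31 in re-added cells, a rise of 0.87 (adjusted p = 9.99e-05) and a fall with log2 -1.04 (adjusted p = 2.17e-05). Lrp1, a receptor that leukocytes and fibroblasts also express, was at 48.1 ± 19.0 CPM in starved and 22.1 ± 9.30 CPM in re-added cells (log2 -1.13, adjusted p = 0.0105). The marker sums given above were also uneven within these groups, and their part in this difference was not tested.

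The genes whose profile over the 12 libraries came closest to each of the 8 were found by the root mean square (RMS) difference of centred log2 CPM, among 11046 genes with a mean of at least 5 CPM. Closest to Srebf1 was Dhcr7, the last enzyme of a branch of cholesterol synthesis (0.108), followed by Th, tyrosine hydroxylase (0.117), and Egln3, an oxygen-sensing hydroxylase (0.126). Among the genes close to Srebf2 were Klc2 (0.082) and Mat1a (0.104). Scap was followed by Neurl4, Man2b2 and Plod3 (0.070 to 0.074), and Insig2 by Chtf8, Zmym5 and Ip6k1 (each 0.069). Insig1 was followed by Shcbp1, Skap1 and Adk (0.103 to 0.112). Stard4 had Fgf1 (0.121) and Galnt14 (0.123) ahead of Insig1 (0.143), the one case in which another of the 8 genes was among the 3 closest. Mylip was followed by Pskh1, Plekhg6 and Cnnm3 (0.092 to 0.113). Nearest to Abca1 were Rnf152 (0.285), Gabarapl1 (0.29) and Klf11 (0.303). These differences grow with the size of a gene's own profile, whose RMS was 0.961 for Abca1, 0.362 for Srebf1 and 0.201 for Insig2. Gabarapl1, an autophagy gene, stood at 125, 320.4, 64.7 and 141 CPM in the control, starved, re-added and Rap groups, and Klf11 at 11.6, 53.0, 5.28 and 12.6 CPM.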

How the data were processed

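Total RNA of 12 MIN6 libraries was sequenced as paired ends of 150 bases, per the labels' protocols. The authors deposited raw read counts per gene in a table for each library, with exon coordinates and length per the file headers. They also deposited a TPM table, whose values equal counts divided by exon length and rescaled, within 5.0e-05. TPM therefore holds no scaling between libraries. Its 12 columns were matched to libraries through headers. The submitters' processing notes name GRCm38.p6, Subread 2.0.1 and limma 3.46.0. The sources used here do not give the aligner, strand setting or annotation release, so overlapping and antisense genes cannot be told apart.

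The test used edgeR 4.0.16 in R 4.3.3 (filterByExpr, minimum count 10, TMM, 1 quasi-likelihood fit of 12 libraries with 8 residual degrees of freedom, Benjamini-Hochberg, threshold 0.05), which kept 16844 genes and 99.9% of counts. No 2 libraries agreed within sampling noise. The fit was tested on simulated data. Alternatives were DESeq2 1.42.0, limma 3.58.1 on log2(TPM + 1) or log2(TPM + 0.1), other scalings, no filter, a replicate block, a marker covariate, libraries of like marker level, and each library left out. Permutation tests used scipy 1.17.1. Named were the 8 members, the 3 called genes with the smallest adjusted p per list and main comparison, and the 3 closest profiles per member. Rxra, Lpcat3, Pltp and Apoe were named besides, to show more of the LXR list. Members and lists were chosen with earlier results of these data known. Some genes that this rule takes are not reported here.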

Additional observations from a re-analysis of the deposited data

How the results depend on the processing

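Of 464 member fold changes recomputed under alternatives other than leaving out each library in turn, 396 kept their direction and side of the threshold. Of the rest, 27 lost and 16 gained a call, and 25 changed sign. Of 576 with a library left out, the numbers were 528, 32, 4 and 12. None that changed sign was called in the main test. In Rap against re-added, the fit with libraries of like marker level was that without re-added replicate 1, so it counts in both sets. In the order marker covariate, then libraries of like marker level, Stard4 in re-added against starved was -0.027 and -0.026, and 0 in limma with either pseudocount (-0.003 to 0.061 leaving out a library). Insig1 in Rap against re-added was -0.016 with no filter, -0.013 with 6 libraries, -0.086 and -0.087 in limma with a pseudocount of 1 and 0.1, and -0.011 with the covariate (-0.013 to 0.046). Scap there was -0.022 and -0.023 in limma. Srebf1 in Rap against starved was -0.082 in limma with either pseudocount, -0.085 with the covariate and -0.039 with like marker level (-0.039 to 0.078). Insig2 in re-added against control was -0.025 with DESeq2 size factors, -0.063 with upper-quartile factors, -0.026 in DESeq2 and -0.125 with the covariate (-0.027 to 0.071). Srebf2 in Rap against control was -0.03 with DESeq2 size factors and in DESeq2, -0.055 with upper-quartile factors, -0.012 with no filter, -0.018 with 6 libraries and -0.101 with the covariate (-0.052 to 0.149). Members called in Rap against re-added were 5 in DESeq2 and 6 with only the 6 libraries, and 2 to 4 leaving out a library. In Rap against starved they were 2 with upper-quartile factors and with the replicate block. There they ran from 2 to 6 over alternatives other than leaving out each library in turn, and from 2 to 5 leaving 1 out. In re-added against control they were 2 with the covariate. The cause was not tested.

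The replicate block left 8, 5 (without Insig1), 3, 2 (without Insig1 and Insig2), 4 and 6 members called in starved against control, re-added against starved, Rap against re-added, Rap against starved, re-added against control and Rap against control. Same-numbered libraries deviated together in 2 of 18 pairs (correlations -0.332 to 0.812), so numbers were not taken to pair libraries. Over all genes, calls in Rap against re-added were 1344, but 2287 in DESeq2, 3959 with 6 libraries and 635 to 2058 leaving out a library. In starved against control they were 6559, but 4199 with 6 libraries and 3236 with like marker level, and upper-quartile scaling moved the median of all genes from 0.01 to -0.13 and the split from 4101 higher and 2458 lower to 2961 and 3679. In re-added against starved they were 6275, but 3559 with like marker level, and in Rap against starved 7424, but 3338 there and 4940 without Rap replicate 3. In re-added against control they were 8304, but 2816 with the covariate and 5208 without re-added replicate 3, and in Rap against control 8927, but 1995 with the covariate. Among lists in Rap against re-added, SREBP processing had 9 calls with upper-quartile factors or the covariate and 12 with 6 libraries, fatty acid synthesis 13 and LXR 7 with 6 libraries.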
